A study of Mus musculus with 8 samples.

Results

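IL-7 withdrawal was followed in 1676 cells that carried a control vector, a comparison that rests on 4 of the 8 arrays of the study: 2 of cells kept in IL-7 and 2 of cells cultured for 24 h without it. The arrays were chosen by their titles. 1676 is a mouse pre-B cell line of genotype SLP-65-/- LAT-/-, and this double deletion of signalling adaptors is shared by all groups. Cells of both groups had been infected with a retroviral control vector and selected with puromycin. The study ran 2 independent experiments with separately generated clones, so the 2 arrays of a group stand for 2 clones of 1 line. IL-7 was supplied in excess as culture supernatant from J558L cells that express it, so removing it also removed whatever else that supernatant held. The other 4 arrays held cells with a vector for hsa-miR-125b under the same conditions. They are used here for the estimate of spread and for 1 comparison of the response.

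The cytokine IL-7 binds a receptor made of IL-7Rα (Il7r) and the common gamma chain (Il2rg), and through JAK1 and JAK3 it activates STAT5. In pre-B cells this signal drives proliferation and survival, together with PI3K and AKT, which keep FOXO transcription factors out of the nucleus. When IL-7 is limiting, large cycling pre-B cells leave the cycle, FOXO factors and IRF4 promote expression of the RAG recombinase, and immunoglobulin light chain genes become accessible for rearrangement. SLP-65 (Blnk) is the adaptor by which the pre-B cell receptor normally supports this step.

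The samples with IL-7 were hybridised on 1 slide and those without it on another, with 505 days between the scans, so withdrawal, slide and scan cannot be told apart in any value below. Levels are log2 signals relative to the array's own 75th percentile, which was 325 to 337 with IL-7 and 606 to 665 without, and between 47.7% and 53.2% of 55681 probes were well above background on the control arrays. Directions are relative to that percentile: the 6 bright E1A spike-in probes, RNA added at labelling, read 2.05 lower without IL-7 on this scale (−2.36 to −1.67), so scaling to them instead would raise every change by that amount turn most falls into rises and put the median of every list named below above 0. The change also moved with the level itself. The 356 genes with a mean level above 8 had a median change of −0.71, and 96.1% of them were called lower and 0% higher, whereas the 3422 genes between 0 and 2 had a median of −0.07. The part of slide, scan or level in any one result was not tested. All 12 pre-B markers examined, among them Cd79a, Ebf1 and Pax5, were well above background on all 4 control arrays. Blnk, the gene of SLP-65, read 7.05 and 7.14 with IL-7 and 7.35 and 7.32 without, and Lat 1.73 and 1.86 with and 1.51 and 1.61 without. The deleted parts of these genes are not given in the sources used here, so their probes do not check the genotype.

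Some promoters of the genes described below are shown first because the factors discussed here bind short DNA motifs. Of 20677 genes tested, 10828 had a RefSeq promoter (GRCm38.p6), and the 250 bases before the start were searched on both strands. The STAT motif TTCNNNGAA stood in 7.44% of them, and in 2 of 12 STAT5 targets with a promoter. Of the genes always described here, 4 held it: Bcl6 chr16:23981284-23981533 (minus strand), Socs3 chr11:117969367-117969616 (minus strand), Il7r chr15:9529877-9530126 (minus strand) and Irf8 chr8:120736108-120736357 (plus strand). Bcl6 is a transcriptional repressor that protects pre-B cells, Socs3 a feedback inhibitor of cytokine signalling, and Irf8 a B-lineage and myeloid transcription factor. Capitals mark the motif, and sequences run 5′ to 3′ toward the start.
Bcl6: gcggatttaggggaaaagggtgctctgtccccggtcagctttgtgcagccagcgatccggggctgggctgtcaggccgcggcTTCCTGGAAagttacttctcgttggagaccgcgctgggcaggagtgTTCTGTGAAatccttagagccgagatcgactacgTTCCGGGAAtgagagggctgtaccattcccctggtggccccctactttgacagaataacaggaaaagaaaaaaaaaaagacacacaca
Socs3: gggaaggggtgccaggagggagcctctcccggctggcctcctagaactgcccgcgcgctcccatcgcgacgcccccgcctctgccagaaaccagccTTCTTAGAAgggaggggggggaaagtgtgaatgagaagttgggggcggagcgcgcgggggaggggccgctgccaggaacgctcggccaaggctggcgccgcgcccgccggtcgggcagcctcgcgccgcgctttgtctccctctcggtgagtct
Il7r: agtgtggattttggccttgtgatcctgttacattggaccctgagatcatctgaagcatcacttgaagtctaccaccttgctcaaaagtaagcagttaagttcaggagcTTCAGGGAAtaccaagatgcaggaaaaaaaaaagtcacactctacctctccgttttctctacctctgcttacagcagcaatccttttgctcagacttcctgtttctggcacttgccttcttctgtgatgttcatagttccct
Irf8: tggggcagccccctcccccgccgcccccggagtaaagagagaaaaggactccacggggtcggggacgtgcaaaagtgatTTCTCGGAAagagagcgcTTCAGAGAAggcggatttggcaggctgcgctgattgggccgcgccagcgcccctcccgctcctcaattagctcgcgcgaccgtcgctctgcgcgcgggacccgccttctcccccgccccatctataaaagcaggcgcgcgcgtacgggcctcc
Bcl6 held 3 matches in this promoter, Irf8 2, and Il7r and Socs3 1 each, with no overlap between matches. On withdrawal Socs3 was called higher, and the other 3 genes were not called.

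A further 4 promoters, chosen after their values were seen, stand for lists described below. Tnfaip3, a feedback inhibitor of NF-kappaB, holds an NF-kappaB motif (GGG and TTCC with any 3 bases between), Btg1, an antiproliferative FOXO target, holds TGTTTAC, and H2-Aa, an MHC class II chain, and Mvd, an enzyme of the mevalonate pathway, hold the CCAAT box bound by NF-Y. Their positions in GRCm38.p6 are Tnfaip3 chr10:19011964-19012213 (minus strand), Btg1 chr10:96616751-96617000 (plus strand), H2-Aa chr17:34287824-34288073 (minus strand) and Mvd chr8:122443423-122443672 (minus strand).
Tnfaip3: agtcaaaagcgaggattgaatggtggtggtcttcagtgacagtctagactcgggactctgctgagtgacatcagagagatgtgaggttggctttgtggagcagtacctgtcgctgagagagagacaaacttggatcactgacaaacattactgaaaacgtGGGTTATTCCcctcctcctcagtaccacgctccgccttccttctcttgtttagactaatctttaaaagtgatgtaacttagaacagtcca
Btg1: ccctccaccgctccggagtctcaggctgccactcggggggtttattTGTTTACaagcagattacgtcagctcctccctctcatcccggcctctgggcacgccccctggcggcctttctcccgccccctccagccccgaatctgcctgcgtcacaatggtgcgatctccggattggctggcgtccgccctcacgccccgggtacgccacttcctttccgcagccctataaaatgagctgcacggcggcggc
H2-Aa: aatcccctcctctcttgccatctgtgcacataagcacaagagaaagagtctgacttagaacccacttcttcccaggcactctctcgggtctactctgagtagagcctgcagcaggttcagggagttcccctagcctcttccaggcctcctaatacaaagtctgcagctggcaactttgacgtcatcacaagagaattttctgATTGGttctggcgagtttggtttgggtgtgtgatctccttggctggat
Mvd: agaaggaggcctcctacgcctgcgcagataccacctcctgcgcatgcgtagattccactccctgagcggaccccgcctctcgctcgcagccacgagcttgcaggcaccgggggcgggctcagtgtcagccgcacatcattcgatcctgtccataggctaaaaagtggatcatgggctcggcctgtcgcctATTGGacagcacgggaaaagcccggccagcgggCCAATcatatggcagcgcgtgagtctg
The NF-kappaB motif was present in 5 of 10 NF-kappaB genes with a promoter and in 6.19% of all genes. CCAAT stood in 11 of 11 genes of MHC class II and antigen presentation, 15 of 17 of sterol synthesis and 20 of 24 of mitosis, against 40.5% of all genes. TGTTTAC stood in 2 of 15 FOXO genes and in 2.79% of all. It also stood in 2 of 15 p53 genes, 2 of 15 PI3K, AKT and mTOR components and 2 of 12 STAT5 targets. The NF-kappaB motif stood in 5 of 12 STAT5 targets, so neither motif was particular to the list of its name. A match is a description of the letters only.

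The signal of most genes tested differed between the groups with and without IL-7. By limma, 11202 of 20677 genes (54.2%) were called at an adjusted p under 0.05, 4137 higher (20.0%) and 7065 lower (34.2%), and the median change of all genes was −0.13. Of these, 3175 (15.4%) changed at least 2-fold, 1673 upward (8.09%) and 1502 downward (7.26%). Of the called genes 36.9% were higher. This share was 16.7% when arrays were scaled to their median, 25.8% with normexp background correction and 99.9% with the spike-ins. It was 45.7% with quantile normalization and 45.5% with the authors' value table. In 81.1% of all genes the arrays of the 2 groups did not overlap, so lack of overlap alone singles out no gene. The counts of each list below are to be read against the 20.0% called higher and 34.2% called lower among all genes. Leaving out the first array without IL-7, the array with the fewest probes above background, gave 7245 called genes, 2569 higher and 4676 lower.

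**Figure D1:**
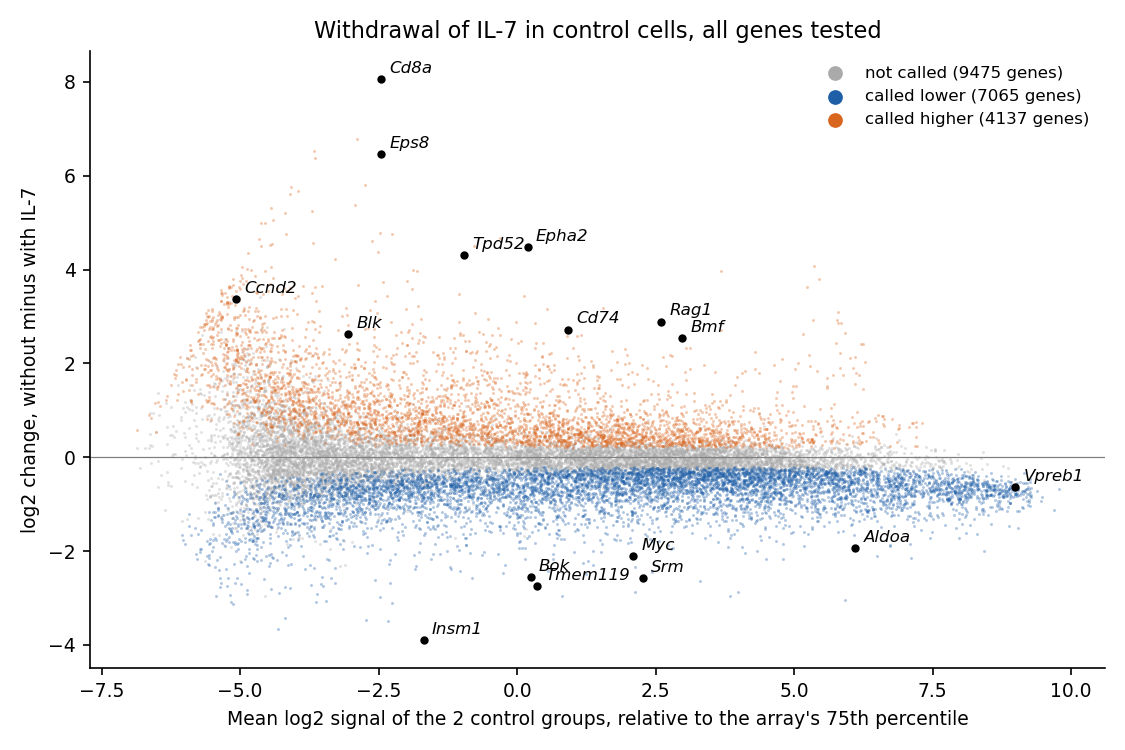
Log2 change on withdrawal of IL-7 (without minus with) against the mean log2 signal of the control groups, relative to each array's 75th percentile, with 1 point per gene tested. Called genes spread to both sides at low and middle levels, while the genes with a mean level above 8 lie almost all below 0, at a median of −0.71.

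Most genes of the IL-7 receptor and its JAK-STAT5 cascade were not called with the scaling used here. Of 10 genes of this list 0 were called higher and 2 lower, with a median of −0.06. That median was 0.10 with quantile normalization and −0.40 with scaling to the array median. Other settings, spike-ins aside, called 0 to 3 of this list higher and 0 to 6 lower. Il7r read 5.49 and 5.57 with IL-7 and 5.39 and 5.37 without, a difference of −0.15 (SE 0.09, adjusted p = 0.22). The groups did not overlap, by a small margin. The kinases and STATs were not called: Jak1 differed by 0.16, Jak3 by −0.06, Stat5a by 0.03 and Stat5b by 0.17 (−0.20 at its second probe). The common gamma chain gene Il2rg fell by 0.33 (SE 0.07) and Ptpn6, the phosphatase SHP-1 that dampens cytokine signalling, by 0.44 (SE 0.09). The call of Il2rg was lost without the first array lacking IL-7 (adjusted p = 0.068), and that of Ptpn6 without this array or the first with IL-7 (up to 0.065).

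By calls and median, genes downstream of STAT5 did not fall as a group. Of 17, 6 were called higher, 3 lower and 8 not called. The median was 0.28 and became −0.05 with scaling to the array median. Changes of at least 2-fold were called for 2 members upward and 1 downward. The latter was Myc, described below, with the deepest change of the list (−2.11). The summed signal of the list, relative to the percentile used for scaling, was 575 to 628 with IL-7. Without IL-7 this sum was lower, at 438 to 446. Cish, the feedback inhibitor most directly tied to STAT5, was dim and scattered, at −1.79 and −2.73 with IL-7 and −1.80 and −1.90 without (adjusted p = 0.61). Its groups overlapped, and a difference was not detectable with these arrays. Socs3 read −0.15 and −0.19 with IL-7 and 0.58 and 0.68 without, a rise of 0.80 (SE 0.10, adjusted p = 0.0023). Socs2, another feedback inhibitor, rose from 2.75 and 2.57 to 3.1 and 3.07, by 0.43 (SE 0.13), a call lost in 10 of 20 alternatives and without any 1 of the 4 control arrays (adjusted p up to 0.136). Its 4 probes gave 0.35 to 1.27. Il2ra, the CD25 subunit that marks small pre-B cells, rose by 1.57 (SE 0.29, adjusted p = 0.0066). The kinase gene Pim1 read 1.98 and 2.12 with and 2.15 and 2.07 without IL-7 and was not called, while its paralog Pim3 fell by 0.62 (SE 0.08). Bcl6, which holds the 3 STAT motifs printed above, read 3.90 and 3.98 with and 4.19 and 4.25 without, a difference of 0.28 that was not called (adjusted p = 0.096). Its groups did not overlap.

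The D-type cyclins, which carry cytokine signals to the cell cycle, gave 1 fall and 1 rise, each lost under another scaling or background correction. Ccnd3, the cyclin on which pre-B cell division depends, read 8.96 and 8.82 with IL-7 and 8.09 and 8.09 without, a fall of 0.80 (SE 0.08, adjusted p = 0.0015) in a range where the median of all genes was −0.71. With quantile normalization it differed by −0.072 (adjusted p = 0.33). Ccnd2 was not well above background with IL-7 (−6.84 and −6.68) and was so on both arrays without it (−3.49 and −3.30), which makes it at least 2.7-fold higher. With normexp its fitted change was 0.24 (adjusted p = 0.071). Bounds of this kind compare the mean of the bright group with a floor on each dim array, taken as the dim probe's own signal or, if higher, the weakest signal that passed the scanner's background mark. They hold only for the probe and processing used here, and another probe or background correction can give less.

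**Figure D2:**
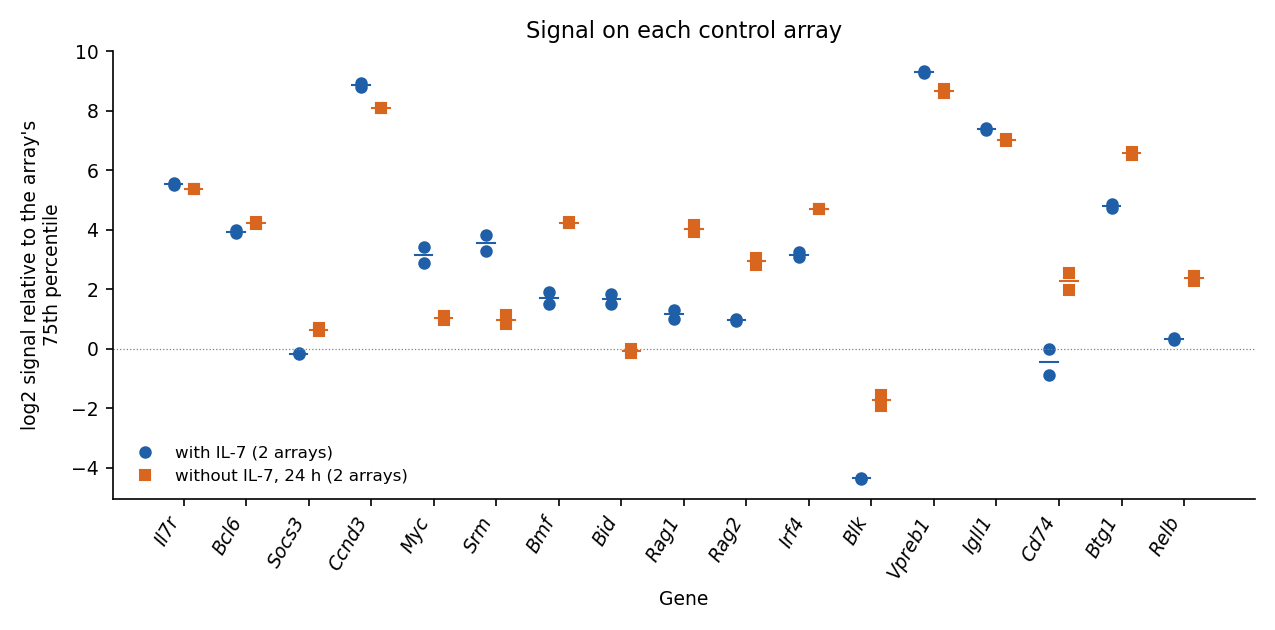
Log2 signal of 17 genes on each control array, relative to the array's 75th percentile, with circles for the arrays with IL-7, squares for those without, and short lines for the mean of 2. Il7r and Bcl6 lie close together between groups, Myc, Srm and Bid sit lower without IL-7, and Rag1, Bmf, Irf4, Cd74 and Relb sit higher.

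FOXO targets were mostly higher. Of 20 FOXO factors and targets, 13 were called higher, 0 lower and 7 not called, with a median of 0.49 against −0.13 for all genes. With scaling to the array median 3 were called higher and 1 lower, with a median of 0.16 against −0.46. Btg1, an inhibitor of proliferation whose promoter is printed above, went from 4.74 and 4.89 to 6.53 and 6.62, by 1.76 (SE 0.15), and its other probe read 2.24. Its groups did not overlap. The ubiquitin ligase gene Fbxo32 rose by 1.39 (SE 0.29; 0.25 and not called with normexp). Klf2, a quiescence and trafficking factor, rose from 1.82 and 1.85 to 2.70 and 2.85, by 0.94 (SE 0.26), and Foxo1 itself from 4.78 and 4.89 to 5.13 and 5.26, by 0.36 (SE 0.09). The call of Klf2 was lost without any 1 of the 4 control arrays (adjusted p up to 0.102), and that of Foxo1 without the first array with IL-7 or the second without it (up to 0.091). Scaling to the array median ended both calls (Klf2 0.60, Foxo1 0.027). Foxo3 differed by 0.20 and was not called. Among 18 PI3K, AKT and mTOR components, 3 were called higher and 2 lower. The latter were Eif4ebp1, a translation repressor controlled by mTOR (−0.96, SE 0.13), and Akt1 (−0.48, SE 0.08; −0.13 and not called with quantile normalization). Other settings, spike-ins aside, called 0 to 11 of this list higher.

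The recombinase rose most among the V(D)J recombination genes, of which 7 of 16 were called higher and 3 lower. Rag1, one subunit of the endonuclease that cuts immunoglobulin genes, read 1.01 and 1.30 with IL-7 and 3.93 and 4.15 without. The rise was 2.89 (SE 0.28, adjusted p = 0.0015), and its second probe gave 2.51. Rag2, the other subunit, went from 0.99 and 0.94 to 2.82 and 3.07, by 1.98 (SE 0.26), with 2.27 at its second probe. Both genes were well separated between groups. Polm, a polymerase used in light chain joining, rose by 1.37 (SE 0.12). Dntt, the terminal transferase that adds nucleotides mainly at heavy chain joints, fell from 4.52 and 4.30 to 3.96 and 3.90, by 0.48 (SE 0.14), a call lost in 9 of 20 alternatives, also without the first array with IL-7 or either array without it (adjusted p up to 0.141). Of the Ku subunits that bind broken ends, Xrcc5 fell by 0.72 (SE 0.21) and Xrcc6 differed by −0.03 and was not called. Xrcc5 lost its call without the same arrays (up to 0.135).

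Immunoglobulin light chain probes showed transcripts of both loci. All 4 lambda transcripts tested were called higher, 3 of them by 2.03 to 2.19 and the other, dim with IL-7, at least 5.35-fold. A lambda constant region probe at chr16:19065462 (mm9 start) read −0.63 and −0.39 with IL-7 and 1.52 and 1.84 without. At the kappa locus, 16 of 68 genes tested were called higher and 7 lower, against 20.0% and 34.2% of all genes. The probe annotated as the kappa constant region, which starts at chr6:70676692 in mm9, went from 2.61 and 2.74 to 4.32 and 4.65, a rise of 1.81 (SE 0.26, adjusted p = 0.0031). The most raised kappa probe measured in both groups, a variable segment at chr6:68686311, went from −1.93 and −1.30 to 0.89 and 1.08. Variable segments resemble each other, so a probe can read more than 1 of them.

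The pre-B cell receptor and its signalling chain had 5 of 19 members called higher and 5 lower with the scaling used here. Quantile normalization gave 11 and 1, with a median of 0.27, and scaling to the array median 4 and 12, with a median of −0.49. The surrogate light chain genes were among the falls: Vpreb1 read 9.34 and 9.28 with IL-7 and 8.74 and 8.60 without (−0.64, SE 0.09), and Igll1 7.41 and 7.36 with and 7.0 and 7.05 without (−0.36, SE 0.07). Igll1 lost its call without the first array lacking IL-7 (adjusted p = 0.051). Vpreb3 fell by 0.46 (SE 0.06). These 3 genes lie in the range of high levels where most genes were lower, and all 3 changed sign with quantile normalization and in the authors' value table. Plcg2, the phospholipase downstream of SLP-65, fell by 0.51 (SE 0.07), a call lost with quantile normalization (−0.021, adjusted p = 0.80). The Src family kinase gene Blk rose from −4.34 and −4.37 to −1.92 and −1.54, by 2.62 (SE 0.18, adjusted p = 0.0010). Blk was dim with IL-7, and its rise was as low as 0.85 under other settings. Bank1, a B-cell scaffold protein, rose by 1.09 (SE 0.21; 0.26 and not called with normexp) and Prkcb, the protein kinase C beta that links receptors to NF-kappaB, by 0.86 (SE 0.09). The receptor's core was not called: Cd79a differed by −0.07 (0.27 at its second probe), Cd79b by −0.26, Syk by 0.17 and Btk by −0.18. Blnk differed by 0.24 (SE 0.08, adjusted p = 0.042), a call lost without any 1 of the 8 arrays (up to 0.157), and Lat by −0.23, which was not called.

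Among 27 transcription factors of the B lineage and of light chain opening, 11 were called higher and 3 lower, with a median of 0.18 (−0.16 with scaling to the array median). Other settings, spike-ins aside, called 4 to 22 higher. Irf4, which promotes light chain transcription, read 3.08 and 3.26 with IL-7 and 4.69 and 4.70 without, a rise of 1.53 (SE 0.12, adjusted p = 0.0012). Its relative Irf8 was level, at 6.01 and 6.10 with and 6.0 and 6.08 without (−0.01). The repressor Bach2 rose by 1.26 (SE 0.13). Of the inhibitors of E proteins, Id1 rose by 1.98 (SE 0.18) from a low level, and Id3 fell by 0.60 (SE 0.18), a call lost without any 1 of the 4 control arrays (adjusted p up to 0.123). The E protein gene Tcf3 differed by 0.08. Ikzf1, the Ikaros gene, was not called at its brightest probe, with 3.52 and 3.48 with IL-7 and 3.84 and 3.93 without (0.38, adjusted p = 0.083), while another of its 3 probes gave 1.51. Ikzf3 (0.16), Spib (0.07) and the PU.1 gene Spi1 (0.02) were not called either. The arrays of Ikzf3 overlapped, with −2.37 and −2.01 with IL-7 and −2.07 and −1.99 without, and those of Spib nearly did, with 6.29 and 6.32 with IL-7 and 6.33 and 6.42 without.

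Most surface receptors of later B cells were called higher. Of 18 measured, 11 were called higher, 0 lower and 7 not called, with a median of 0.62. Only 15 were well above background on all 4 control arrays. Genes dim on both arrays with IL-7 and bright without, such as Ms4a1 and Cd40, could count only as rises. Other settings, spike-ins aside, called 8 to 13 of this list higher and 0 to 3 lower. Ms4a1, which encodes CD20, was not well above background with IL-7 and read −2.65 and −0.52 without, at least 9.4-fold higher. Its arrays without IL-7 were far apart, and each alone gives at least 4.51-fold (the first) and 19.8-fold (the second). Cd40, the receptor for T-cell help, was likewise dim with IL-7 (−4.88 and −4.85) and read −0.33 and 0.16 without, at least 26.7-fold higher. Under other settings the fitted log2 change was as low as 1.38 for Ms4a1 and 2.24 for Cd40, less than these bounds. Ltb, the lymphotoxin beta gene, rose by 2.16 (SE 0.25). Cd22, an inhibitory receptor, differed by −0.18 with overlapping arrays. Of 9 measured surface genes of pro-B cells and progenitors, 5 were also called higher and 1 lower, led by Ly6d (1.86, SE 0.21), Bst1 (1.01, SE 0.07) and Cd34 (0.93, SE 0.14). The rise of Cd34 was gone with normexp (0.0084, adjusted p = 0.95). The fall was Cd24a, by 0.25, a call lost without any 1 of the 8 arrays (adjusted p up to 0.210).

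Some MHC class II genes and their invariant chain were higher. Cd74, the invariant chain that guards the class II groove, read −0.87 and −0.02 with IL-7 and 1.99 and 2.55 without, a rise of 2.72 (SE 0.34, adjusted p = 0.0022). H2-Aa rose by 1.23 (SE 0.27) and H2-Ob, a chain of the peptide-loading regulator, by 1.01 (SE 0.14). In all, 6 of 14 genes of this list were called higher, 0 lower and 8 not called, and with scaling to the array median 3 were higher and 4 lower. H2-Aa lost its call without the first array with IL-7 or the second without it (adjusted p up to 0.061). Ciita, the master coactivator of class II transcription, read −3.71 and −3.17 with and −2.70 and −2.77 without, and was not called (adjusted p = 0.34). Of 10 homing and egress receptors, 4 were called higher and 1 lower. Ccr7, the receptor for lymph node chemokines, rose by 2.43 (SE 0.14), and P2ry10, a lysophospholipid receptor, by 1.68 (SE 0.24). S1pr2, which holds B cells in follicles, fell by 0.92 (SE 0.18). Cxcr4, which retains precursors in bone marrow, read 2.50 and 2.51 with IL-7 and 2.61 and 2.57 without and was not called, and neither was S1pr1 (−0.16).

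The genes of ribosome production had the lowest median of any list, and Myc itself fell. The list of MYC and the MAX network did not fall as a whole. Of its 10 measured genes 4 were called higher and 3 lower, with a median of 0.34. Myc read 3.42 and 2.87 with IL-7 and 0.96 and 1.1 without, a fall of 2.11 (SE 0.25, adjusted p = 0.0020). Mxd4, which competes with MYC for MAX, rose by 1.14 (SE 0.18). Of 28 genes of ribosome biogenesis and polyamine synthesis, 27 were called lower and 0 higher, 20 of them by at least 2-fold, with a median of −1.11. The median level of these genes was in a range where all genes had a median change of −0.14, and 27 of the 28 lay below the median of their own level range. Srm, the spermidine synthase gene and a direct MYC target, went from 3.82 and 3.28 to 0.84 and 1.12, by −2.57 (SE 0.29), with −2.64 at its second probe. Gnl3, the nucleolar GTPase nucleostemin, fell by 1.76 (SE 0.22) and Polr1b, a subunit of RNA polymerase I, by 1.55 (SE 0.25). The member that was not called was Odc1, which makes putrescine, at −0.36 (adjusted p = 0.084).

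Metabolic genes fell with them. In glycolysis and glucose uptake 14 of 20 were called lower and 1 higher, with a median of −0.67: Aldoa read 7.36 and 6.79 with IL-7 and 5.02 and 5.25 without (−1.94, SE 0.22), Eno1 fell by 1.66 (SE 0.16) and Ldha by 1.24 (SE 0.16). The aldolase isoform Aldoc rose by 0.47 (SE 0.10; adjusted p = 0.053 without the second array lacking IL-7, and 0.44 with scaling to the array median), and the glucose transporter gene Slc2a1 differed by −0.22 and was not called. All 3 falls exceed the median of genes at their level. In the synthesis of serine, folate intermediates and nucleotides, 20 of 23 were called lower and 0 higher, with a median of −0.76, led by Shmt1 (−1.67, SE 0.17), Gart (−1.46, SE 0.20) and Mthfd1 (−1.41, SE 0.15). Sterol and fatty acid synthesis lost signal in 21 of 25 genes, with 0 called higher and a median of −0.61. Fdps, which makes farnesyl pyrophosphate, went from 6.12 and 6.01 to 4.58 and 4.58 (−1.49, SE 0.08, adjusted p = 0.00069). Mvd, whose promoter is shown above, fell by 1.25 (SE 0.09) and Lss, lanosterol synthase, by 0.99 (SE 0.11). Of 22 tRNA synthetases and ATF4 targets 14 were called lower and 0 higher, among them Gars (−0.72, SE 0.10; −0.20 and not called with quantile normalization), while the stress factors Atf4 (−0.05) and Ddit3 (−0.03) were not called. The median of this list was −0.40, at levels where 51.1% of all genes were called lower and their median was −0.27. Other settings, spike-ins aside, called 6 to 20 of the 22 lower, and with normexp their median lay −0.06 from that of all genes.

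Most replication genes fell, while most genes of mitosis were not called. Of 34 replication genes 28 were called lower and 0 higher, but only 2 of them by at least 2-fold, with a median of −0.55 and 27 of 34 below the median of their level range. With quantile normalization 14 were called lower and 1 higher. Chaf1b, a histone chaperone subunit, read 6.13 and 6.01 with IL-7 and 4.96 and 5.01 without (−1.08, SE 0.10). Orc1, part of the origin recognition complex, fell by 1.05 (SE 0.12) and Gins1, part of the replicative helicase, by 0.91 (SE 0.13). Tyms differed by 0.01 and was not called. Of 30 mitotic genes 8 were called lower, 1 higher and 21 not called, with a median of −0.10, and 24 of 30 lay above the median of their level range. The direction of this list turns with the scaling: 15 members were called higher and 2 lower with quantile normalization, at a median of 0.29, and 0 and 18 with scaling to the array median. Cdc20 (−0.52, SE 0.07), Tpx2 (−0.50, SE 0.07, second probe 0.09) and Ccnb1 (−0.43, SE 0.10; adjusted p up to 0.070 without the first array of either group) fell, and the kinetochore gene Cenpf rose by 0.48 (SE 0.09). Quantile normalization ended the calls of Cdc20 (−0.015, adjusted p = 0.87) and Ccnb1 (−0.081, adjusted p = 0.48), the mean over probes that of Tpx2 (−0.21, adjusted p = 0.067), and scaling to the array median that of Cenpf (0.15, adjusted p = 0.33). The proliferation marker Mki67 read 7.34 and 7.57 with IL-7 and 7.70 and 7.55 without, and its groups overlapped. Top2a differed by 0.02. Whether the lists differ from each other was not tested.

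The G1 machinery was mixed, with 6 of 20 genes called higher and 7 lower, against 20.0% and 34.2% of all genes. Cdkn2b, the CDK inhibitor p15, rose from −4.54 and −4.84 to −1.70 and −1.32, by 3.18 (SE 0.24), and passed the background mark on 1 of its 2 arrays with IL-7. Its second probe gave 3.41, and the rise was as low as 1.19 under other settings. Cdk4 fell by 0.82 (SE 0.11), with all 3 of its probes lower. The inhibitor gene Cdkn1a fell by 0.86 (SE 0.14) at its brightest probe but read 1.04 at another of 3, so its direction depends on the probe.

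**Figure D3:**
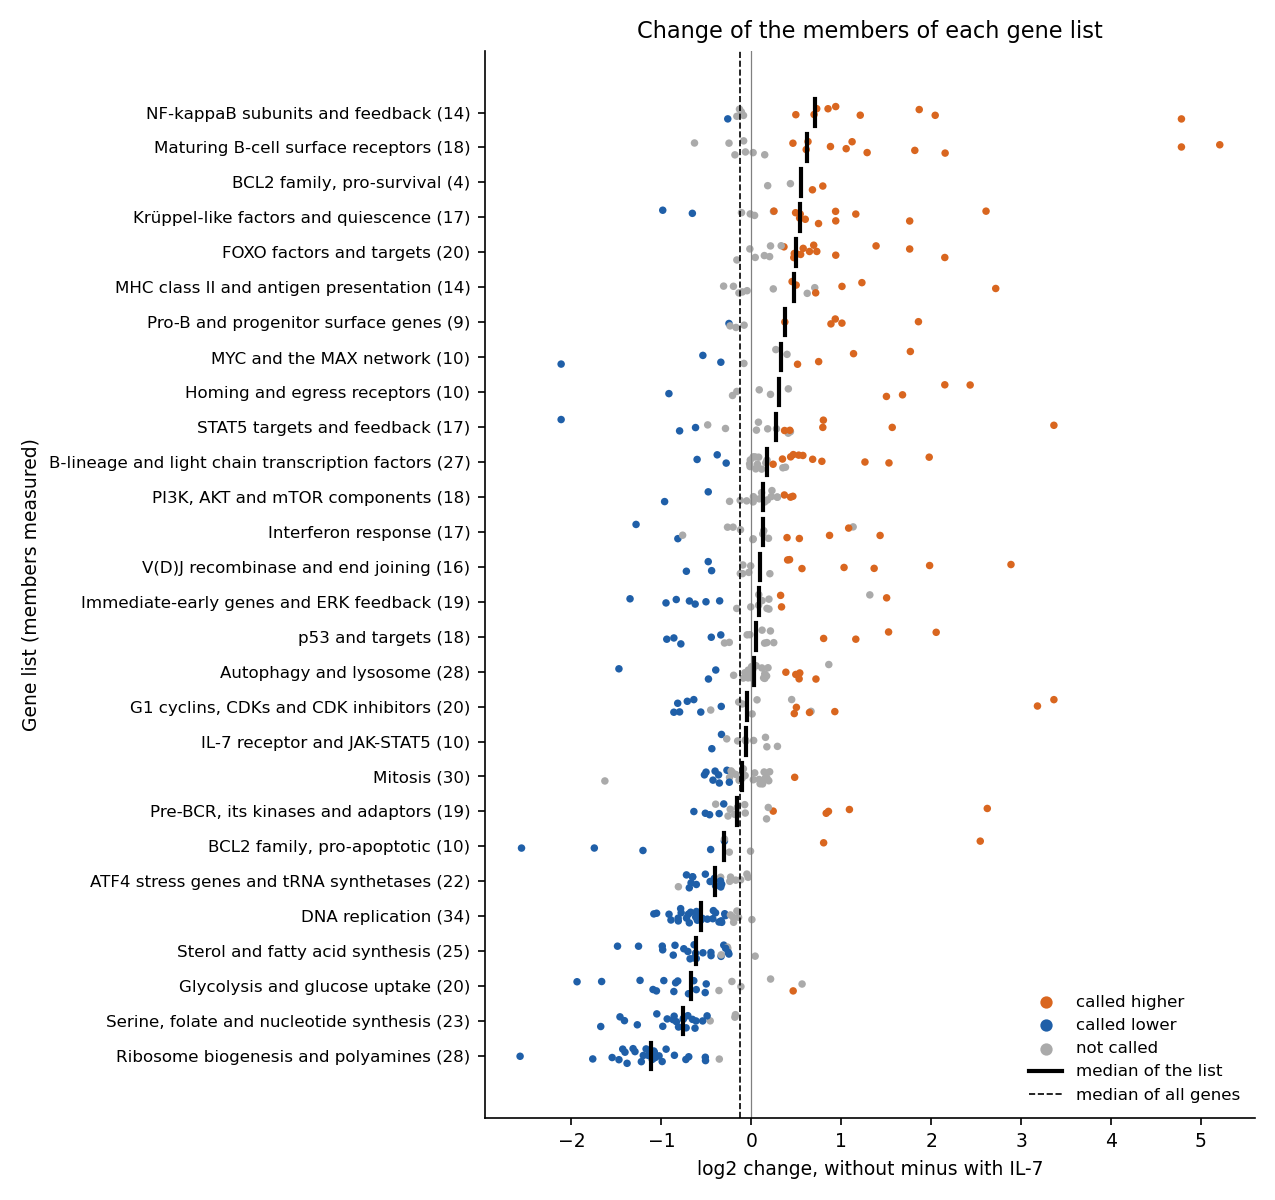
Log2 change on withdrawal (without minus with IL-7) of each measured member of 28 gene lists, with 1 point per gene coloured by its call, a bar at the list's median and a dashed line at the median of all genes. Ribosome biogenesis, nucleotide and sterol synthesis, glycolysis and DNA replication lie left of the dashed line, and NF-kappaB, B-cell receptor, FOXO and quiescence genes lie right of it.

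BCL2 family genes were called in both directions. Of 10 pro-apoptotic members 2 were called higher and 5 lower, against 20.0% and 34.2% of all genes. Bmf, a BH3-only death agonist, read 1.5 and 1.9 with IL-7 and 4.23 and 4.26 without, a rise of 2.55 (SE 0.20, adjusted p = 0.0012), and Bbc3, which encodes PUMA, rose by 0.80 (SE 0.10). Bcl2l11, which encodes BIM, was level, at −1.62 and −1.88 with and −1.76 and −1.75 without (−0.01, SE 0.20). Bid, a BH3-only protein activated by caspase cleavage, went from 1.84 and 1.5 to −0.13 and −0.02, by −1.74 (SE 0.20). Bok, a BAX-like effector, fell from 1.59 and 1.44 to −0.96 and −1.11, by 2.55 (SE 0.40). Bax differed by −0.24 and was not called. On the pro-survival side 2 of 4 measured genes were called higher, Bcl2l1 (0.80, SE 0.09), which encodes BCL-XL, and Bcl2l2 (0.68, SE 0.11; 0.35 and not called with scaling to the array median). Bcl2 read −1.37 and −1.29 with IL-7 and −1.02 and −0.77 without and just missed the threshold (0.44, adjusted p = 0.053), and Mcl1, at 5.43 and 5.41 with and 5.61 and 5.59 without, did so too (0.18, adjusted p = 0.056; −0.14 at its second probe).

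Of 18 measured p53 genes 4 were called higher and 5 lower, near the shares of 20.0% and 34.2% among all genes, so the counts do not set this list apart. Zmat3, an RNA-binding p53 target, rose by 2.06 (SE 0.22), Trp53inp1, a stress protein, by 1.53 (SE 0.09) and the antiproliferative gene Btg2 by 1.16 (SE 0.11). Trp53 itself fell by 0.78 (SE 0.16), a call lost without the first array lacking IL-7 (adjusted p = 0.051), and Mdm2, its ubiquitin ligase and target, differed by 0.17 and was not called.

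NF-kappaB genes had the highest median of the lists, 0.71, with 9 of 14 called higher and 1 lower. The higher ones include Cd40, which also counts with the surface receptors above and, being dim with IL-7, could count only as a rise. Relb, a subunit of the alternative pathway, read 0.28 and 0.36 with IL-7 and 2.28 and 2.44 without, a rise of 2.04 (SE 0.10, adjusted p = 0.00056). One of its 3 probes read −0.03. Tnfaip3, the feedback inhibitor A20, rose from −0.49 and −0.57 to 1.37 and 1.30, by 1.87 (SE 0.18). The canonical subunits Rela (−0.13) and Nfkb1 (−0.16, and 0.39 at its second probe) were not called. Of 17 Krüppel-like and quiescence factors 11 were called higher and 2 lower, and with scaling to the array median 4 and 4. Slfn2, which keeps lymphocytes quiescent, rose by 2.61 (SE 0.34) and passed the background mark on 1 of its 2 arrays with IL-7. Cbx7, a Polycomb protein, fell by 0.98 (SE 0.20). Of 19 immediate-early genes and ERK feedback inhibitors 3 were called higher and 7 lower: Jun, an AP-1 subunit, rose by 1.51 (SE 0.07), and Dusp5, an ERK phosphatase, fell by 1.35 (SE 0.28), with 1 of its 2 arrays without IL-7 above background. Dusp1 rose by 0.33 (SE 0.09), a call lost without any 1 of the 4 control arrays (adjusted p up to 0.108) and −0.01 with scaling to the array median. Of 17 interferon response genes 5 were called higher, 2 of them by at least 2-fold, and 2 lower. The deepest fall of this list was Bst2, the antiviral tetherin, at −1.28 (SE 0.14). Of 28 autophagy and lysosome genes 5 were called higher, 0 of them by at least 2-fold, and 3 lower. Their deepest fall was the autophagosome gene Gabarapl1 at −1.47 (SE 0.14). Of all genes 20.0% were called higher and 34.2% lower.

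Genes without a RefSeq symbol, or with a Gm, Rik, LOC, clone or accession name, were left out of the rankings that follow. The largest rises among the other genes measured on all 4 control arrays lay outside the lists. Epha2, an ephrin receptor kinase, read −1.91 and −2.19 with IL-7 and 2.29 and 2.57 without, a rise of 4.48 (SE 0.46, adjusted p = 0.0016). Tpd52, a vesicle trafficking protein, went from −3.21 and −3.01 to 1.05 and 1.34, by 4.30 (SE 0.26), with 3.22 at its second probe. Ifi214, of the interferon-inducible p200 family, rose from −3.93 and −3.82 to 0.18 and 0.05, by 3.99 (SE 0.12). These genes went from below the array's 75th percentile to near or above it. Col5a3, a collagen chain, was already above it, at 1.63 and 1.77 with and 5.55 and 5.78 without (3.97, SE 0.25). Itgb3, the integrin beta 3 chain, read −4.03 and −3.54 with and −0.03 and 0.38 without (3.96, SE 0.25), although its second probe gave 1.6. Next came Sntg2 (3.43, SE 0.26), Pnma2 (3.17, SE 0.16), Cyp2j9 (3.16, SE 0.11), the actin-severing protein gene Gsn (3.15, SE 0.33) and Isoc2b (3.07, SE 0.12). The size of these rises depends on the processing. The lowest value under another setting was 3.63 for Col5a3, 2.46 for Ifi214, 1.88 for Cyp2j9 and 1.32 for Isoc2b. In each of the 10 the highest array with IL-7 lay below the lowest without it. They were picked for the size of their rise, and the groups did not overlap in 81.1% of all genes.

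The largest falls were led by Insm1, a zinc finger repressor, which read 0.29 and 0.22 with IL-7 and −3.57 and −3.70 without (−3.89, SE 0.34, adjusted p = 0.0014). Serpinb9c, a clade B serpin, varied between arrays with IL-7, at −0.19 and −1.22, and read −3.91 and −3.71 without (−3.11, SE 0.54). Tmem98 went from 2.37 and 2.21 to −0.69 and −0.64 (−2.95, SE 0.15) and Tmem119 from 1.85 and 1.6 to −1.06 and −0.97 (−2.74, SE 0.11). Both encode transmembrane proteins. After Srm and Bok, described above, followed the neurofilament gene Nefh (−2.47, SE 0.34), the steroid hydroxylase gene Cyp17a1 (−2.42, SE 0.32) and Pecr (−2.39, SE 0.27).

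Genes dim on both arrays of 1 group have only a bound. The largest was Cd8a, the T-cell coreceptor chain, which read −6.06 and −6.90 with IL-7 and 1.63 and 1.53 without, at least 84.7-fold higher. Eps8, an actin regulator, was at least 48.5-fold higher, Trim12a at least 40.2-fold, Ltbp2 at least 31.5-fold, Cnrip1 at least 21.4-fold, Zfp551 at least 20.7-fold and Gnpda2 at least 20.5-fold. For Eps8, Trim12a, Zfp551 and Gnpda2 a second probe gave a fitted log2 change of 3.35, 3.94, 2.91 and 3.95, less than these bounds. Under other settings the fitted log2 change was as low as 4.11 for Cd8a, 3.07 for Eps8, 2.91 for Trim12a and 2.00 for Zfp551. The bounds thus hold only for the probe and processing used here. Downward bounds were smaller: Srxn1, the antioxidant enzyme sulfiredoxin, was at least 6.99-fold lower, Hopx at least 5.86-fold, Nr2c1 at least 5.71-fold and the prostacyclin receptor gene Ptgir at least 4.71-fold.

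Markers of other cell types did not rise as lists with Cd8a. Of 18 T and NK cell markers 8 were measured, 1 called higher (Cd8a) and 3 lower, among them the T-cell receptor component Cd3e (−1.44, SE 0.15), and their summed signal was 11.0 to 11.5 times the array's 75th percentile with IL-7 and 10.8 to 11.2 times without. Cd8a added to this sum almost only without IL-7, so the close sums do not show that the other markers stayed level. Cd3d, Cd3g, Cd8b1 and Thy1 were not well above background on both arrays of any group. Of 16 myeloid markers 10 were measured, with 2 called higher, 1 lower and a summed signal of 177 to 193 times with IL-7 and 180 to 196 times without. Nearly all of this came from Csf3r, the G-CSF receptor gene, which read 7.36 and 7.47 with IL-7 and 7.48 and 7.37 without. Fcgr3, a low-affinity antibody receptor, rose by 1.1 (SE 0.23), a call lost without the first array with IL-7 (adjusted p = 0.050). Mpo, S100a8 and S100a9 were not well above background in any group. The erythroid, plasma cell and stromal lists had 5, 6 and 4 members measured, with 2 of each called higher and 2, 3 and 2 called lower. Their summed signals were 7.6 to 7.74, 189 to 209 and 9.53 to 10.3 times with IL-7 and 5.50 to 5.68, 166 to 176 and 6.63 to 6.91 times without. The part of other cells in the changes was not tested. In a bulk sample, a change in the share of cells and a change per cell cannot be told apart.

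The same withdrawal in cells with miR-125b, on other arrays of the same 2 slides, allowed 1 test of whether the response of control cells was their own. Of the difference of the responses 0 of 20677 genes (0%) were called by limma, with the lowest adjusted p at 0.149 and 1215 genes at an unadjusted p under 0.05. Of the 11202 genes called in control cells, 11041 had the same sign in miR-125b cells. Both contrasts run from the same slide to the same other slide, so shared slide effects and shared responses cannot be told apart. Among the genes above, Rag1 rose by 2.89 in control and 2.20 in miR-125b cells, Bmf by 2.55 and 2.42, Irf4 by 1.53 and 1.40, and Blk by 2.62 and 2.67. Values stood further apart in 5 genes picked after their values were seen, Cd74 (2.72 and 0.91), Socs3 (0.80 and 0.09), Itgb3 (3.96 and 2.06), Epha2 (4.48 and 6.02) and Gsn (3.15 and 4.88), none with an adjusted p under 0.05 for the difference (0.61, 0.53, 0.48, 0.86 and 0.63). With normexp background correction the difference of Itgb3 was called (−1.77, adjusted p = 0.016). A p that misses the threshold does not show that the responses were alike: the median SE of a difference was 0.17.

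**Figure D4:**
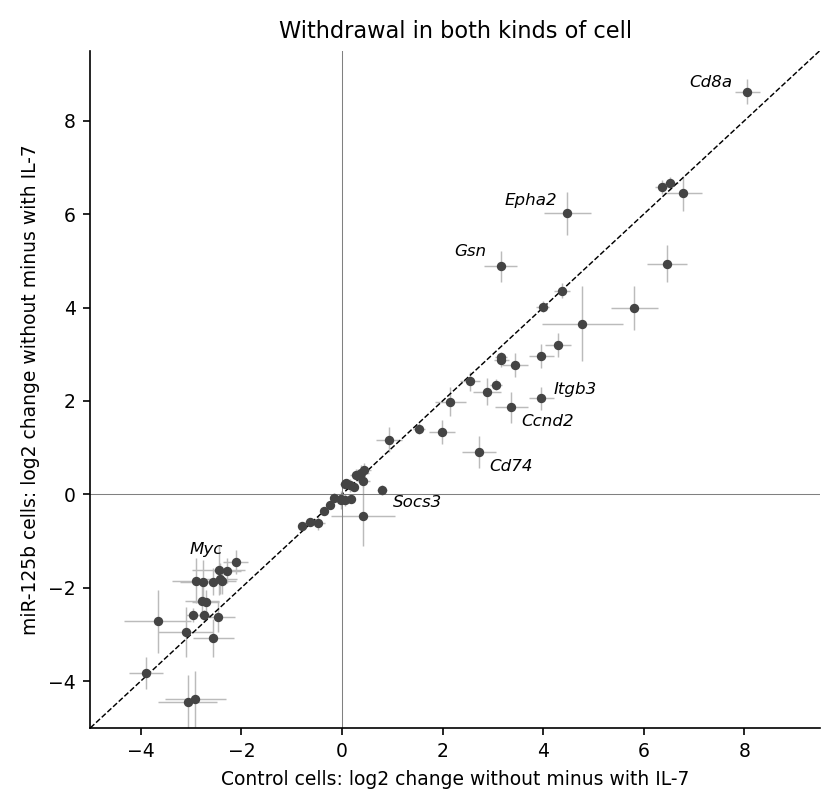
Log2 change on withdrawal in control cells (horizontal) and in miR-125b cells (vertical) for the genes named for the size of their change or described in every case, with bars for the SE and a dashed line of equal change. Genes dim in 1 group, such as Cd8a, are shown at their fitted change, which is no bound. Most points lie along the line, and Cd74, Socs3 and Itgb3 lie below it and Epha2 and Gsn above it.

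How far the lists' medians depend on the scaling is shown by the plot of medians under 6 scalings. From the 75th percentile to the array median the median of all genes moved from −0.13 to −0.46, and to 1.92 with the spike-ins, and each list moved with it. Relative to all genes, ribosome biogenesis lay at −0.98 with the scaling used here, −0.87 with quantile normalization and −0.75 with normexp, and NF-kappaB at 0.84, 0.88 and 0.86. DNA replication lay at −0.42, −0.13 and −0.19, and mitosis at 0.03, 0.33 and 0.24.

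**Figure D5:**
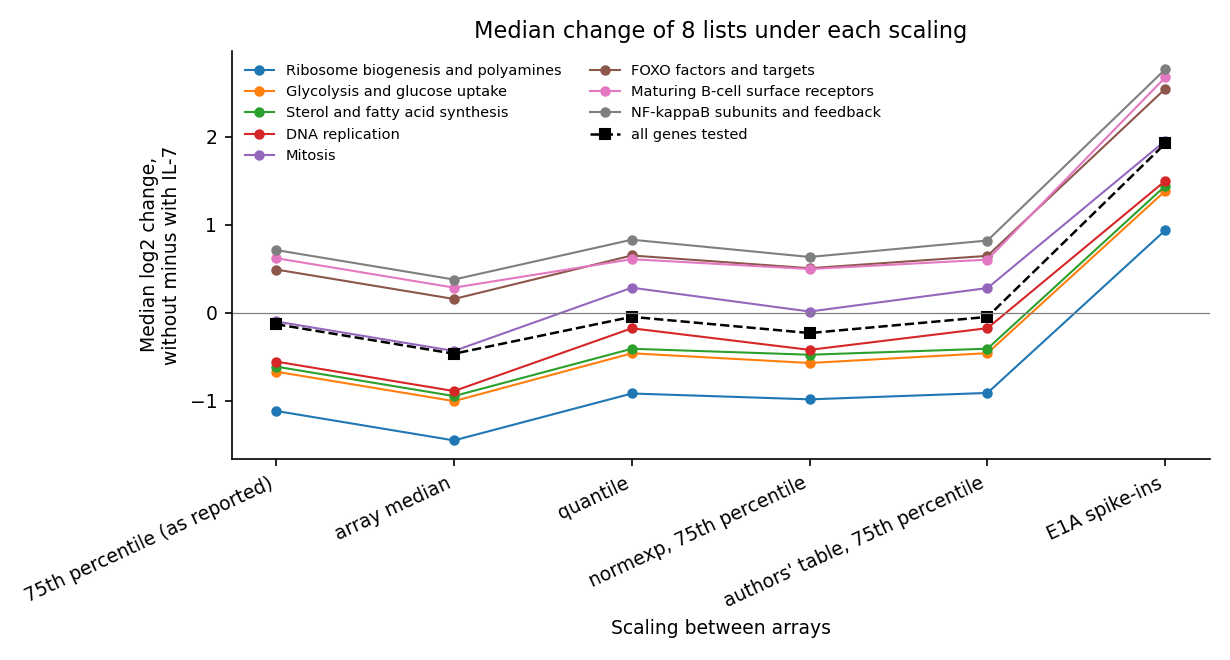
Median log2 change (without minus with IL-7) of 8 gene lists and of all genes tested under 6 ways of scaling the arrays. Ribosome biogenesis is the lowest of the 8 and NF-kappaB the highest in all 6, while scaling to the E1A spike-ins lifts every median above 0.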

How the data were processed

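Total RNA was hybridised to single-colour (Cy3) Agilent 60-mer arrays. The scanner's processed signal was used, which is an intensity per the file headers: detrended, background-subtracted and not normalized between arrays. Quality marks of another kind (other: 0 or 1 per spot) and the mean and local background intensity also come from the deposited files. Feature Extraction was version 10.7.3.1 with IL-7 and 10.7.1.1 without, per the file headers; the submitters' processing notes name 10.7.1.1. A further table from the authors, of intensity values with equal distributions across arrays, served as an alternative.

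Control spots were left out, spots of a probe averaged, and log2 signals set against each array's 75th percentile. A probe was kept where both arrays of some group passed the scanner's background mark, and the brightest stood for its gene (20677 genes). Positions are those of the files (mm9). Limma 3.58.1 (R 4.3.3) was fitted to all 8 arrays with 4 group means, 4 residual degrees of freedom and Benjamini-Hochberg adjustment over all genes; p are two-sided and errors are SE, with n = 2 per group. The number of arrays limits precision. The script was tested on simulated data. Members and gene lists were chosen with earlier results of these data known. Of each list up to 3 called members each way are named, with the 10 largest changes each way on probes measured on all 4 control arrays, the largest bounds each way and a set of IL-7 and pre-B genes described in every case. The largest changes and bounds were ranked among genes with a RefSeq symbol, leaving out Gm, Rik, LOC, clone and accession names. Some genes that these rules name are not reported here. Names were brought up to date from RefSeq (GRCm38.p6). Alternatives covered scaling, background correction, the filter, probe choice, the arrays fitted, a mean-variance trend, replicate blocks and leaving out each array.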

Additional observations from a re-analysis of the deposited data

How the results depend on the processing

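Against 11202 called genes, quantile normalization called 10666 (8977 of them shared, in the same direction), normexp 13121 (9195 shared), scaling to the array median 12743 (9183 shared) and the spike-ins 20085 (4154 shared). Scaling to the array median gave 2126 higher and 10617 lower, and the spike-ins 20068 and 17. Of at least 2-fold changes there were 4936 with the array median, 19149 with the spike-ins, 1242 with normexp and 1927 on probes above background on all 8 arrays. Leaving out each array gave 7245 to 11076 called genes, 2569 to 4204 higher, 4676 to 6872 lower and 2401 to 3517 changed at least 2-fold. For the difference between miR-125b and control cells, the array median, quantile normalization, the authors' table and a mean-variance trend gave 1 gene each, normexp 6, Itgb3 among them, and leaving out an array 0 to 3. The causes were not tested. The replicate block gave 10476 called genes and the block within each vector 9341, and the difference stayed at 0 under both. Same-numbered control samples deviated with r = −0.10. With 2 arrays a group on different slides, this value cannot decide whether a number marks the same clone with and without IL-7.

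Some genes changed sign and were called with the reported or the other setting (log2 change). With quantile normalization these were Vpreb1 0.11, Vpreb3 0.27, Cd24a 0.33, Irf8 0.35, Igll1 0.17, Xrcc6 0.50, Cd79a 0.41, Cd79b 0.45 and Atf4 0.58. With the authors' value table they were Vpreb1 0.10, Vpreb3 0.27, Cd24a 0.33, Irf8 0.35, Igll1 0.17, Xrcc6 0.50, Cd79a 0.40, Cd79b 0.46 and Atf4 0.57. With scaling to the array median they were Dusp1 −0.0086, Blnk −0.091 and Csf3r −0.32. Scaling to the array median lowers every gene alike, so genes with small rises called under neither setting turn too, such as Bcl6 (−0.055) and Jak1 (−0.18). With the mean of a gene's probes Cdkn1a was at 0.055. With the spike-ins they were Gars 1.33, Gabarapl1 0.58, Id3 1.45, Bid 0.31, Chaf1b 0.97, Orc1 1.00, Gins1 1.14, Cdkn1a 1.19, Cdk4 1.24, Ccnd3 1.26, Aldoa 0.12, Eno1 0.39, Ldha 0.82, S1pr2 1.14, Ptpn6 1.61, Il2rg 1.72, Dusp5 0.71, Bst2 0.77, Cbx7 1.07, Cdc20 1.53, Tpx2 1.55, Ccnb1 1.63, Eif4ebp1 1.09, Akt1 1.57, Vpreb1 1.42, Plcg2 1.54, Vpreb3 1.59, Cd24a 1.81, Gnl3 0.29, Polr1b 0.51, Pim3 1.43, Shmt1 0.38, Gart 0.59, Mthfd1 0.64, Fdps 0.57, Mvd 0.80, Lss 1.06, Cd3e 0.61, Xrcc5 1.33, Dntt 1.57, Trp53 1.27, Il7r 1.90, Irf8 2.04, Bcl2l11 2.04, Igll1 1.70, Lat 1.82, Jak3 1.99, Xrcc6 2.03, Cd79a 1.98, Cd79b 1.80, Btk 1.87, S1pr1 1.89, Bax 1.81, Odc1 1.70, Slc2a1 1.84, Atf4 2.00, Ddit3 2.02, Rela 1.92, Nfkb1 1.89 and Cd22 1.87. Of 120 called genes tracked, 120 kept direction and call with the trend, 118 with the control arrays alone and 69 with the spike-ins. With 2 arrays a group, differences near the median SE of 0.12 were not detectable, and dim probes give bounds only.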
